A study of Mus musculus and Homo sapiens with 14 samples.

Results

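The genes described here are 34 genes of glycolysis and of the response to low oxygen, followed through leukemia cells in which the kinase gene Sik3 or the transcription factor gene Mef2c was cut, or in which the salt-inducible kinases were inhibited. They were chosen by name and comprise 17 glycolytic enzymes, 4 regulatory kinases, 11 targets of hypoxia-inducible factor (HIF) and 2 HIF alpha subunits. All 34 have a row in each deposited table, out of 20682 rows in each of the mouse tables and 19166 in the table of the human line MOLM-13. Of them, 29 reached the mean value of 10 needed for a test in each mouse table, and 31 did in MOLM-13.

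Glycolysis turns glucose into pyruvate, and lactate dehydrogenase turns pyruvate into lactate. PFKFB enzymes set the amount of an activator of phosphofructokinase, and PDK kinases switch off pyruvate dehydrogenase, so both control how much sugar flows down the pathway and where its carbon goes. In oxygen, the EGLN prolyl hydroxylases mark HIF alpha subunits for destruction. In low oxygen the subunits last, pair with ARNT and switch on many of the genes above, and the EGLN genes themselves are among the targets. Blood leukemias live in bone marrow, where oxygen is low, and their cells are known for a high use of glycolysis.

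PolyA-selected RNA was sequenced in 14 libraries of acute myeloid leukemia cells, in 7 groups of 2. RN2c, a mouse leukemia line with Cas9, was collected on day 2 after infection with a guide RNA. The sgSik3 group has 1 library for guide e1 and 1 for guide e3, the sgMef2c group has 1 for guide 1 and 1 for guide 2, and the sgRosa26 group, whose guide cuts a neutral locus, has 2. RN2, a mouse leukemia made with the MLL-AF9 fusion and a mutant Nras, received 350 nM YKL-05-099, which inhibits salt-inducible kinases, or 0.1% DMSO for 2 hours. MOLM-13, a human line with an MLL-AF9 fusion that here carried an empty vector, received 250 nM YKL-05-099 or 0.1% DMSO for the same time. The titles of the RN2 libraries also hold the word empty. All groups grew in medium with serum, and the labels name no low-oxygen step. The sources used here do not say whether the infected cells were a pool or a clone, or whether the replicates were separate cultures. The p-values therefore rest on spread that may be only technical.

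Reads counted to genes, recovered from the normalised values, lay between 13961461 and 24275290 per library. The 2 sgRosa26 libraries are the same reads in both knockout tables, so the knockout comparisons share their controls. As a check of the cuts, Sik3 had 1219 and 1169 normalised reads in sgSik3 libraries, against 1939 and 1878 in sgRosa26 libraries, a log2 fold change of -0.68 (SE 0.05, limma adjusted p = 5.7e-06). Mef2c had 3892 and 4021 in sgMef2c libraries, against 8395 and 8369 in sgRosa26 libraries (-1.08, SE 0.04, limma adjusted p = 8e-05). All 12 myeloid leukemia markers had reads in the mouse tables. With sgSik3, 8 of 12 rose and 0 fell, where 23.9% of all genes tested rose and 23.9% fell (limma adjusted p under 0.05). Their summed value was 232098 and 225329 in sgSik3 libraries, against 141886 and 147764 in sgRosa26 libraries. Lyz2 was the largest part of this sum, with a mean of 72913 over these libraries and a log2 fold change of 1.13, so the sum follows Lyz2 more than the other markers. With sgMef2c, 6 of 12 rose and 2 fell, where 16.3% of all genes tested rose and 15.1% fell. The sum was 202165 and 216691 in sgMef2c libraries, against 149145 and 154921 in sgRosa26 libraries, again with Lyz2 as the highest member. Markers of granulocytes also moved with both knockouts, to be read beside the same shares of all genes. All 14 tested granulocyte markers rose with sgSik3, with a summed value of 129961 and 119536 in sgSik3 libraries, against 25350.1 and 27664 in sgRosa26 libraries. With sgMef2c, 12 of 14 rose and 1 fell, with a sum of 112553 and 217001 in sgMef2c libraries, against 26647 and 29003 in sgRosa26 libraries. The part of these shifts in the results on the 34 genes was not tested, and in bulk RNA a change in the cells present cannot be told apart from a change in RNA per cell. Of the T and NK cell markers in the knockout tables, 5 of 8 were at 0 in every library, among them Cd3e and Cd8a, while Nkg7 rose with both knockouts and Prf1 rose with sgMef2c (2.17, SE 0.48, limma adjusted p = 0.015). No marker of any list passed with YKL-05-099 in either line.

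The enzymes differed widely in level. Levels are given here as normalised reads per kilobase of merged exons. Among hexokinases, which trap glucose in the cell, Hk3 stood at 6829.7 and 6895 in sgSik3 libraries and 6212 and 6433 in sgRosa26 libraries. Hk2 was at 734 and 729 in sgSik3 libraries and 686 and 771 in sgRosa26 libraries. Hk1 was at 364 and 371 in sgSik3 libraries and 352 and 367 in sgRosa26 libraries, so the order Hk3, Hk2, Hk1 held in all 4 libraries with no overlap between genes. The size of the gap between Hk2 and Hk1 rests on the length used, 5969 bases for Hk2 and 8532 for Hk1. Hk2 also had more reads in these libraries. In RN2 with YKL-05-099, Hk1 had more reads, 2371 and 2455 against 1896 and 1763 for Hk2. With DMSO neither gene led in both RN2 libraries, at 2149 and 2234 for Hk1 and 2163 and 2078 for Hk2. Per kilobase, Hk2 was above Hk1 in every RN2 library. Hk3 is a hexokinase known from myeloid cells. Of the phosphofructokinases, Pfkl was at 416 and 437 in sgSik3 libraries and 481 and 439.7 in sgRosa26 libraries. Pfkp was at 229 and 232 in sgSik3 libraries and 269 and 239 in sgRosa26 libraries. Their order rests on the length used, since the merged exons of Pfkp span 13401 bases and those of Pfkl 6675, and Pfkp had more reads than Pfkl in each of these libraries. Pfkm was at 210.3 and 204 in sgSik3 libraries and 209 and 210.5 in sgRosa26 libraries. Aldoa, the main aldolase here, was at 6977 and 6838 in sgSik3 libraries and 6949.8 and 6904 in sgRosa26 libraries, while Aldoc was at 0.596 and 3.68 in sgSik3 libraries and 4.04 and 5.2 in sgRosa26 libraries.

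Several enzymes have processed pseudogenes, which are reverse-transcribed copies of their messenger RNA. Of all 50-base stretches of the longest coding transcript (GENCODE M21, build GRCm38), 82.5% also occurred in another gene for Gapdh, in 222 genes of which 213 are pseudogenes. The share was 72.2% for Eno1, 68.0% for Pgk1, 62.4% for Bnip3, 41.5% for Pgam1, 25.3% for Gpi1, 23.4% for Bnip3l and 16.6% for Ldha. It was 0% for Hk2, Hk3, Pfkfb4, Pdk1, Pdk3, Egln1, Egln3, P4ha1 and Kdm3a, and 7.3% for Hif1a. The enolase Eno1 shared 70.5% with Eno1b alone, and reads were few at both. Eno1 had 47.7 and 57.9 normalised reads in sgSik3 libraries, against 64.9 and 48.9 in sgRosa26 libraries. Eno1b had 19.5 and 18.6 in sgSik3 libraries, against 21.6 and 22.9 in sgRosa26 libraries. The human gene ENO1 had 66028 and 67808 in MOLM-13 cells with YKL-05-099, against 66897 and 70569.9 with DMSO, in a table normalised apart from the mouse ones. How reads with several matches were counted is not given in the sources used here, so the values of Gapdh, Eno1, Pgk1, Bnip3 and Pgam1 are uncertain. For Gpi1 the largest share, 18.6%, was with the pseudogene Gm1840. Part of the shared stretches belong to overlapping genes, such as the antisense Gm17035 at Ndrg1 and Gm15283 at Hif1a, and the library kit does not mark strand.

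**Figure D1:**
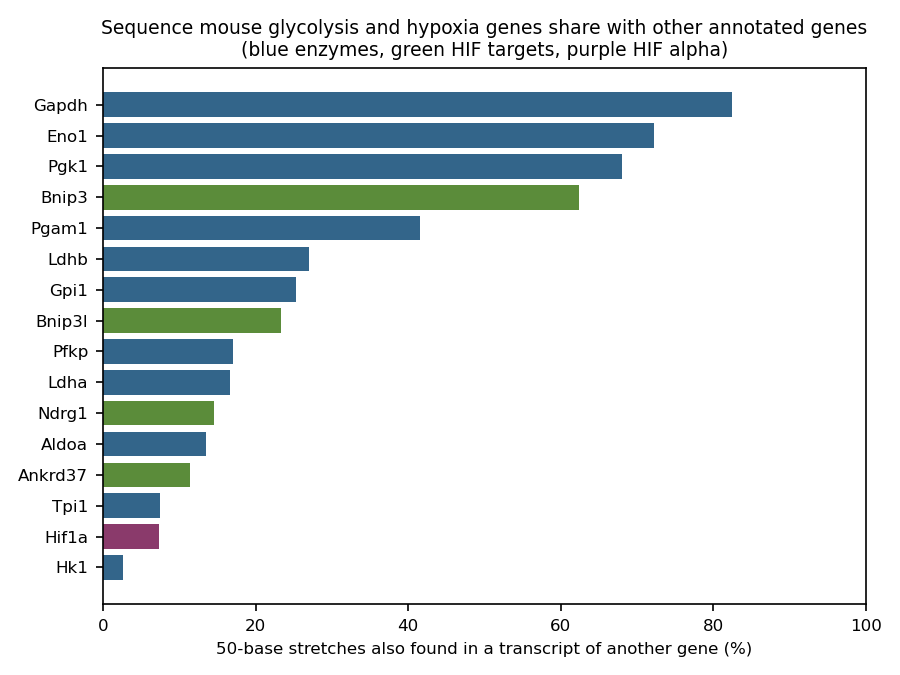
Share of 50-base stretches of each mouse gene's longest coding transcript that also occur in a transcript of another annotated gene, in percent, for genes with at least 1%. Gapdh at 82.5%, Eno1 at 72.2%, Pgk1 at 68.0% and Bnip3 at 62.4% share most of their sequence.

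Among the glycolytic enzymes, Gpi1 rose and Gapdh, Pgam1 and Ldha, which act in the lower part of the pathway, fell with the cut of Sik3 and with that of Mef2c. With sgSik3, 7 of 15 tested enzymes passed the test (limma on log2(value + 1), adjusted p under 0.05), 2 higher and 5 lower, where 47.8% of all genes tested passed, 23.9% higher and 23.9% lower. With sgMef2c, 5 of 15 passed, 1 higher and 4 lower, where 31.4% of all genes did, 16.3% higher and 15.1% lower. The enzymes' shares, 46.7% and 33.3%, were near those of all genes. Without the library of guide e1, 4 enzymes passed with sgSik3, and without the library of guide 2, 3 passed with sgMef2c. Over all genes, 3442 were called with sgMef2c, but 1815 when guide 2 was left out, and 2206 and 2119 when control replicate 1 or control replicate 2 was.

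Gpi1, which turns glucose-6-phosphate into fructose-6-phosphate, had 48725 and 48451 normalised reads in sgSik3 libraries, against 33534 and 36542 in sgRosa26 libraries. The sgMef2c libraries had 49568 and 54305, against 35249.7 and 38312 in sgRosa26 libraries. All 4 knockout libraries lay above the controls, and over all genes the groups did not overlap for 75.2% with sgSik3 and 70.5% with sgMef2c. These shares stand beside every statement below that a knockout and its controls did not overlap. For Gpi1 the log2 fold change was 0.47 (SE 0.04, limma adjusted p = 3.1e-05) with sgSik3 and 0.50 (SE 0.06, limma adjusted p = 0.0018) with sgMef2c, a ratio of means of 1.39 and 1.41. Gpi1 lies on chromosome 7, from 34201330 to 34230336 on the minus strand (GRCm38).

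Ldha (chromosome 7, 46841475 to 46855627, plus strand), which makes lactate from pyruvate, had 16624 and 16688 normalised reads in sgSik3 libraries, against 19953 and 19987 in sgRosa26 libraries. With sgMef2c it had 18032 and 18146, against 20974 and 20955 in sgRosa26 libraries. Libraries within a group lay close together and the groups did not overlap. Ldha fell by 0.26 on the log2 scale with sgSik3 (SE 0.03, limma adjusted p = 0.00012) and by 0.21 with sgMef2c (SE 0.04, adjusted p = 0.006).

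Gapdh (chromosome 6, 125161715 to 125166467, minus strand), the enzyme that oxidises glyceraldehyde-3-phosphate, had 1414 and 1412 normalised reads in sgSik3 libraries, against 1757 and 2018 in sgRosa26 libraries. With sgMef2c it had 1676 and 1589.6, against 1847 and 2116 in sgRosa26 libraries. Controls were higher in both tables, and the controls spread more than the knockouts. On the log2 scale the change was -0.41 (SE 0.06, limma adjusted p = 0.0006) with sgSik3 and -0.28 (SE 0.07, adjusted p = 0.024) with sgMef2c, and the sgMef2c call was lost without sgRosa26 replicate 2 (adjusted p = 0.10) or without guide 2 (adjusted p = 0.095). Gapdh is the gene with the most shared sequence.

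Pgam1 (chromosome 19, 41911923 to 41918660, plus strand), phosphoglycerate mutase, had 5519 and 5505 normalised reads in sgSik3 libraries, against 5932 and 5841 in sgRosa26 libraries. With sgMef2c it had 5293 and 5008, against 6235 and 6124 in sgRosa26 libraries. It was lower in every knockout library, and more so with sgMef2c. The log2 fold change was -0.09 (SE 0.03, limma adjusted p = 0.034) with sgSik3, a call lost without either sgSik3 library (adjusted p 0.14 and 0.15), without sgRosa26 replicate 1 (adjusted p = 0.068) and with DESeq2 (adjusted p = 0.16). It was -0.26 (SE 0.04, adjusted p = 0.0044) with sgMef2c.

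Hk3 (chromosome 13, 55005985 to 55021385, minus strand) was the only gene of the 34 that passed in opposite directions, and it was singled out after its values were seen. It had 25147 and 25389 normalised reads in sgSik3 libraries, against 22874 and 23688 in sgRosa26 libraries. With sgMef2c the values were 22071 and 22361, against 24045 and 24835 in sgRosa26 libraries. The changes were 0.12 (SE 0.03, limma adjusted p = 0.015) with sgSik3 and -0.14 (SE 0.04, adjusted p = 0.038) with sgMef2c on the log2 scale. Both are small, and the sgSik3 call was lost without either sgSik3 library (adjusted p 0.075 and 0.10), the sgMef2c call without any 1 of its 4 libraries (adjusted p from 0.068 to 0.22) and with no filter on low values (0.053).

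Of the other enzymes, Pgk1 (log2 fold change -0.17, SE 0.03, limma adjusted p = 0.0023) and Tpi1 (-0.25, SE 0.09, adjusted p = 0.04) fell with sgSik3. Tpi1 rested on sgRosa26 replicate 2, which had 11003 normalised reads where replicate 1 had 8655, and without it the change was -0.08 (adjusted p = 0.069). The call was also lost without either sgSik3 library (0.14 and 0.15), with no filter on low values (0.079) and with DESeq2 (0.26). With sgMef2c neither passed, at -0.12 (adjusted p = 0.051) for Pgk1 and -0.20 (adjusted p = 0.16) for Tpi1. Hk1, Hk2, Pfkl, Pfkm, Pfkp, Aldoa, Aldoc and Eno1 did not pass in either knockout. Hk1 was close to the threshold with sgMef2c (0.13, SE 0.04, limma adjusted p = 0.051). For Aldoa the interval was narrow, from -0.07 to 0.07 with sgSik3 and from -0.07 to 0.10 with sgMef2c. For Aldoc, with 1.9 and 12 normalised reads in sgSik3 libraries, against 13.2 and 17 in sgRosa26 libraries, the interval ran from -2.82 to 0.09, so little can be said of it. Eno2 and Ldhb were too low to test in the mouse cells. Ldhb, the lactate dehydrogenase that favours pyruvate, had 4.9 and 7.6 in sgSik3 libraries, against 0.9 and 1 in sgRosa26 libraries, and 6.3 and 5.4 in sgMef2c libraries, against 1 and 1 in sgRosa26 libraries.

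**Figure D2:**
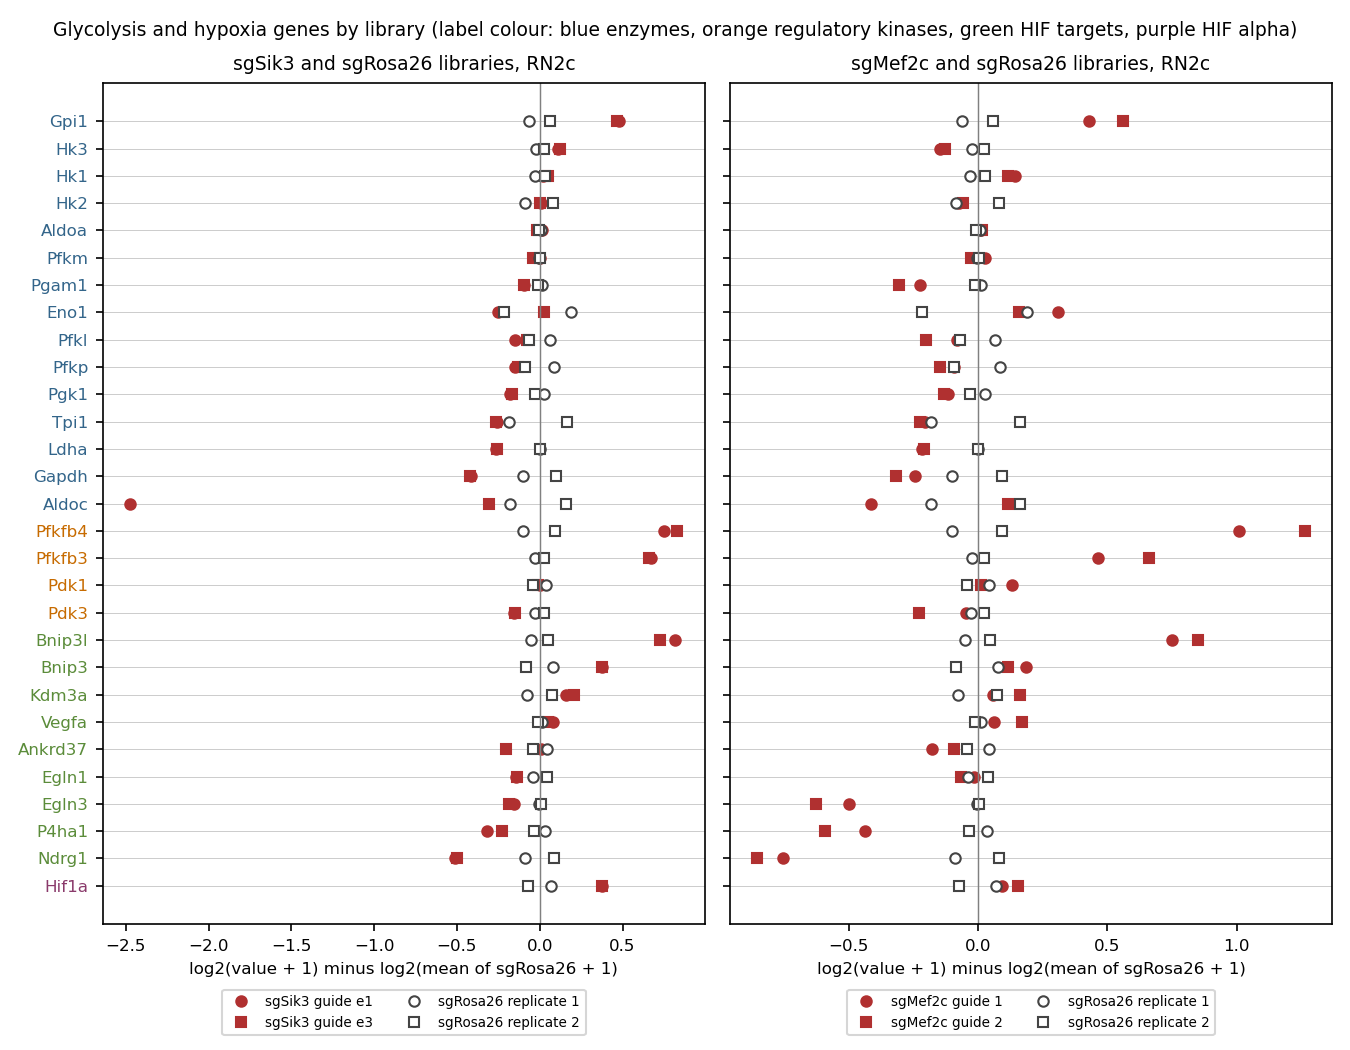
Each point is 1 RN2c library, placed by log2(value + 1) minus the same for the mean of the 2 sgRosa26 libraries, for the 29 tested genes, with sgSik3 at left and sgMef2c at right on axes of different range, filled points for knockouts and open points for sgRosa26. Pfkfb4, Pfkfb3, Bnip3l and Gpi1 lie to the right of the controls in both panels, and Ndrg1, P4ha1, Ldha and Gapdh to the left.

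Pfkfb3 and Pfkfb4 rose with both knockouts, and in each the rise of Pfkfb4 was the largest among the 29 tested genes, while of the pyruvate dehydrogenase kinases Pdk1 passed in neither, and Pdk3 fell slightly with sgSik3 and did not pass with sgMef2c (-0.14, limma adjusted p = 0.20). With sgSik3, 3 of 4 passed, 2 higher and 1 lower, where 47.8% of all genes did, 23.9% higher and 23.9% lower. With sgMef2c, 2 of 4 passed, both higher, where 31.4% of all genes did, 16.3% higher and 15.1% lower.

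Pfkfb3 (chromosome 2, 11471433 to 11554077, minus strand), which mainly makes the activator of phosphofructokinase, had 4893 and 4843 normalised reads in sgSik3 libraries, against 3010.1 and 3123 in sgRosa26 libraries. In sgMef2c libraries it had 4439 and 5089.8, against 3164 and 3275 in sgRosa26 libraries. Every knockout library was above every control, and the guides of Mef2c differed more from each other than those of Sik3. This was a log2 fold change of 0.67 (SE 0.04, limma adjusted p = 1.8e-06) with sgSik3 and 0.56 (SE 0.07, adjusted p = 0.0014) with sgMef2c.

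Pfkfb4 (chromosome 9, 108991778 to 109032228, plus strand), a relative of Pfkfb3 with both the making and the breaking activity, had 682.1 and 720.5 normalised reads in sgSik3 libraries, against 377.2 and 431.8 in sgRosa26 libraries. The sgMef2c libraries had 856 and 1019.9, against 396.5 and 452.7 in sgRosa26 libraries. It was higher in all knockout libraries, by a ratio of means of 1.73 with sgSik3 and 2.21 with sgMef2c. The log2 fold changes were 0.80 with sgSik3 (SE 0.08, limma adjusted p = 6.1e-05) and 1.14 with sgMef2c (SE 0.10, adjusted p = 0.00065).

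Pdk3 had 758 and 762 normalised reads in sgSik3 libraries, against 827.8 and 859.6 in sgRosa26 libraries. On the log2 scale the change was -0.15 (SE 0.05, limma adjusted p = 0.048), close to the threshold. It was lost without either sgSik3 library (adjusted p 0.18 and 0.16), without sgRosa26 replicate 2 (0.15), with no filter on low values (0.058) and with DESeq2 (0.29). Pdk1 had a log2 fold change of -0.01 with sgSik3 (95% interval from -0.13 to 0.12) and 0.07 with sgMef2c (from -0.08 to 0.23).

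Since Pfkfb3 and Pfkfb4 moved together, their promoters are shown, with every copy of the HIF core motif, ACGTG or GCGTG on either strand, in capitals. Each is 300 bases around a transcription start in RefSeq, build GRCm38.p6, written 5′ to 3′ along the gene. The Pfkfb3 window is chr2:11553880-11554179 on the minus strand, 1 of 2 windows of this gene, and the Pfkfb4 window is chr9:108991652-108991951 on the plus strand.
Pfkfb3: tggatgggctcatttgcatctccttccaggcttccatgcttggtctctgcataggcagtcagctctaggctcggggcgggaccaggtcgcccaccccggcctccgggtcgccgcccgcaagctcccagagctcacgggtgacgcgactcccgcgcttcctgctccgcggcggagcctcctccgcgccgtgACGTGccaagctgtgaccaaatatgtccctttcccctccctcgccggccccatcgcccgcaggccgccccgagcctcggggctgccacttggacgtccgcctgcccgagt
Pfkfb4: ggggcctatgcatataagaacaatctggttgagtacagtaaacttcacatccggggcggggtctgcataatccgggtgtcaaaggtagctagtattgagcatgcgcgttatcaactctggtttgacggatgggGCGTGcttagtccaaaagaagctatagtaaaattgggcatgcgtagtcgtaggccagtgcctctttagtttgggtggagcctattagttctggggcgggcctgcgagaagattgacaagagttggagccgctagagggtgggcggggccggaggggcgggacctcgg
Pfkfb3 held 1 ACGTG in this window, its other window held 2 ACGTG, of which 1 lay in CACGTG, and 2 GCGTG, and Pfkfb4 held 1 GCGTG. RefSeq windows were matched for 31 of the 34 genes, 46 windows in all, and 78.3% of these held either motif, where 43.8% of all 32851 mouse windows did. ACGTG was in 23 of the 46 windows and in 19.6% of all, and GCGTG in 27 of the 46 and in 32.4% of all. ACGTG within CACGTG, the E-box that other factors also bind, was in 10.9% of the genes' windows and 7.2% of all. The Gpi1 window held neither motif. Some windows of a gene overlap and hold the same motif copies, as at Aldoa and Eno1, so windows are not independent. The genes were chosen as glycolysis and HIF genes, both motifs contain CG, and the windows were not matched for base content. The difference from all windows was not tested. These are matches of letters and do not show binding.

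The HIF targets did not move as 1 block. Bnip3l rose and Egln3, Ndrg1 and P4ha1 fell in both knockouts, and Bnip3 rose with sgSik3. With sgSik3, 7 of 9 tested targets passed, 3 higher and 4 lower, and with sgMef2c 4 of 9, 1 higher and 3 lower. The shares were 77.8% and 44.4%, beside 47.8% and 31.4% of all genes. Without either sgSik3 library, 4 of 9 passed with sgSik3.

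Bnip3l (chromosome 14, 66985239 to 67008877, minus strand), a receptor for the removal of mitochondria by autophagy, had 2808 and 2637 normalised reads in sgSik3 libraries, against 1535 and 1647 in sgRosa26 libraries. With sgMef2c the values were 2811 and 3013, against 1614 and 1727 in sgRosa26 libraries. The groups were far apart in both tables. The log2 fold change was 0.77 (SE 0.05, limma adjusted p = 4.4e-06) with sgSik3 and 0.80 (SE 0.05, adjusted p = 0.00035) with sgMef2c. Its relative Bnip3 had 380.4 and 379.9 normalised reads in sgSik3 libraries, against 308.5 and 276.2 in sgRosa26 libraries (0.38, SE 0.09, adjusted p = 0.0066). That call was lost without either sgSik3 library (adjusted p 0.052 and 0.051), and with sgMef2c Bnip3 did not pass (0.15, adjusted p = 0.25).

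Ndrg1 (chromosome 15, 66929318 to 66969640, minus strand), a gene induced by stress and low oxygen, had 534.2 and 539.3 normalised reads in sgSik3 libraries, against 715.8 and 807.8 in sgRosa26 libraries. In sgMef2c libraries it had 474.5 and 442.6, against 752.5 and 846.9 in sgRosa26 libraries. No knockout library reached a control. This was a log2 fold change of -0.50 (SE 0.07, limma adjusted p = 0.00046) with sgSik3 and -0.80 (SE 0.08, adjusted p = 0.00085) with sgMef2c.

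Egln3 (chromosome 12, 54178981 to 54203860, minus strand), a prolyl hydroxylase strongly induced by HIF, had 3736 and 3663 normalised reads in sgSik3 libraries, against 4147 and 4176 in sgRosa26 libraries. The sgMef2c libraries had 3089.9 and 2830.3, against 4359.6 and 4379 in sgRosa26 libraries. The fall with sgSik3 was small beside that with sgMef2c. On the log2 scale the change was -0.17 (SE 0.03, limma adjusted p = 0.0028) with sgSik3 and -0.56 (SE 0.05, adjusted p = 0.00063) with sgMef2c. P4ha1 (chromosome 10, 59323296 to 59373304, plus strand), a catalytic subunit of collagen prolyl hydroxylase, had 1243 and 1327 normalised reads in sgSik3 libraries, against 1588 and 1516 in sgRosa26 libraries. With sgMef2c the values were 1202 and 1081, against 1669 and 1589 in sgRosa26 libraries. All knockout libraries were below the controls, with log2 fold changes of -0.27 with sgSik3 (SE 0.05, limma adjusted p = 0.002) and -0.51 with sgMef2c (SE 0.06, adjusted p = 0.0018).

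The windows of these 2 genes, which share no 50-base stretch with another gene, are chr12:54203825-54204124 on the minus strand for Egln3 and chr10:59323046-59323345 on the plus strand for P4ha1, with the same motifs in capitals.
Egln3: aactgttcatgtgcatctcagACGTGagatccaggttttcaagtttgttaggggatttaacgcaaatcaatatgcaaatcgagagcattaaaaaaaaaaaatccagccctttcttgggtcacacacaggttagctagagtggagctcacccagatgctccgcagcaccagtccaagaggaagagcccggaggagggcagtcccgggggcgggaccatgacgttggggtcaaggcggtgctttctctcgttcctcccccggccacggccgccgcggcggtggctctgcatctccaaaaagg
P4ha1: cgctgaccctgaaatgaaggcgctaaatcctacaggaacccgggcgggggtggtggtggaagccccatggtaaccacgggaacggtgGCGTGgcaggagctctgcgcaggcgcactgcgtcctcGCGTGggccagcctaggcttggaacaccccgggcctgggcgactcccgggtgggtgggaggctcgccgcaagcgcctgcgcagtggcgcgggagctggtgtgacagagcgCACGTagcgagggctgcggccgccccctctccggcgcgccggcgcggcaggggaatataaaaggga
Egln3 held 1 ACGTG, and P4ha1 held 1 ACGTG, read here from the other strand as CACGT, and 2 GCGTG. The windows shown for Pfkfb3 and Pfkfb4, which rose, and for Egln3 and P4ha1, which fell, each held a core motif, as did 43.8% of all mouse windows. That of Gpi1, which rose, held none. Whether the motif bears on the direction of change was not tested.

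Of the other targets, Egln1, the main oxygen-sensing hydroxylase, fell (-0.14, SE 0.05, limma adjusted p = 0.032) and Kdm3a, a histone demethylase, rose (0.18, SE 0.06, adjusted p = 0.025) with sgSik3. Both calls were lost without either sgSik3 library, Egln1 also without sgRosa26 replicate 2 and Kdm3a without sgRosa26 replicate 1 (adjusted p from 0.078 to 0.15 over these), and both with DESeq2 (0.19 and 0.082). With sgMef2c neither passed. Vegfa, which encodes a vessel growth factor, did not pass in either knockout, at 0.07 (95% interval from -0.04 to 0.17) with sgSik3 and 0.12 (from -0.01 to 0.24) with sgMef2c. Ankrd37 had 28.4 to 33.1 normalised reads in sgSik3 libraries, against 31.9 to 33.9 in sgRosa26 libraries. Adm was listed at 0 in every mouse library and P4ha2 at no more than 3.1.

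Hif1a (chromosome 12, 73901375 to 73947530, plus strand), which encodes the oxygen-regulated subunit of HIF, had 7117 and 7102 normalised reads in sgSik3 libraries, against 5748 and 5207 in sgRosa26 libraries. In sgMef2c libraries it had 6136 and 6405, against 6043 and 5459 in sgRosa26 libraries. It was clearly higher with sgSik3, while with sgMef2c the lower knockout library lay just above the higher control. The log2 fold change was 0.38 (SE 0.05, limma adjusted p = 0.00017) with sgSik3 and 0.13 (SE 0.06, adjusted p = 0.13) with sgMef2c, where it passed without sgRosa26 replicate 1 (adjusted p = 0.049). HIF alpha is controlled mainly through protein stability, which messenger RNA does not show. Epas1, which encodes the other HIF alpha subunit, was too low to test, with 10.7 and 7.6 in sgSik3 libraries, against 2.8 and 2 in sgRosa26 libraries, and 8.1 and 7.5 in sgMef2c libraries, against 3 and 2.1 in sgRosa26 libraries.

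Set beside each other, the enzymes and the HIF targets had the same median log2 fold change with sgSik3, -0.10, and medians of -0.12 and -0.04 with sgMef2c, while the median of all genes was -0.001 and 0. The median size of change was 0.12 for enzymes and 0.18 for HIF targets with sgSik3, beside 0.18 over all genes, and 0.14 and 0.15 with sgMef2c, beside 0.15. Because the comparisons share the sgRosa26 libraries, passing the same way in both adds no support to a gene's direction.

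**Figure D3:**
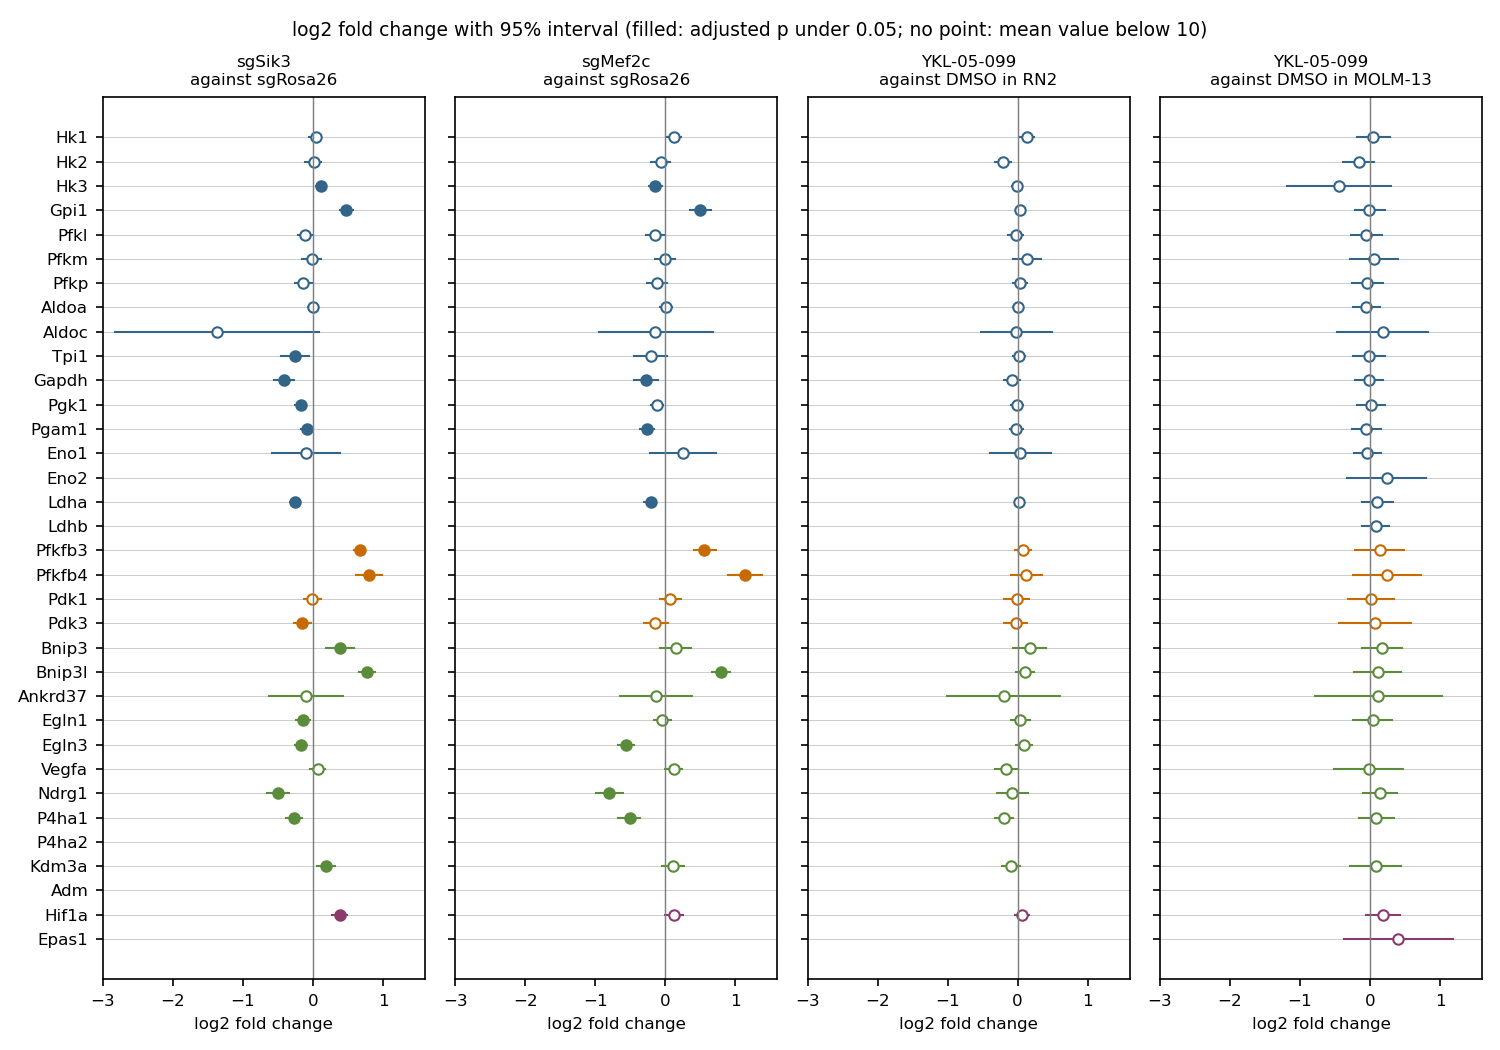
log2 fold change of each gene in the 4 comparisons, with its 95% interval, on the log2(value + 1) scale, filled where the limma adjusted p was under 0.05. The knockouts carry all filled points, from -0.80 for Ndrg1 to 1.14 for Pfkfb4 with sgMef2c, and the inhibitor panels have none.

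The wider pathway was followed through lists of other genes. Of 24 tested genes of glucose uptake, lactate export and pyruvate use, 7 were higher and 9 lower with sgSik3, and 5 higher and 6 lower with sgMef2c. With sgSik3 the lactate transporters parted, Slc16a1 falling (-0.78, SE 0.04, limma adjusted p = 2e-06) and Slc16a3 rising (0.90, SE 0.06, adjusted p = 4.4e-06). With sgMef2c the glucose transporter Slc2a6 (-1.25, SE 0.11, adjusted p = 0.00063) and the pyruvate dehydrogenase phosphatase Pdp1 (-0.71, SE 0.07, adjusted p = 0.00089) fell. In the pentose phosphate pathway, which branches off at the product of hexokinase, 5 of 8 were higher and 1 lower with sgSik3, and 5 of 8 were higher and 0 lower with sgMef2c. H6pd rose in both (0.59 with sgSik3 and 0.46 with sgMef2c), and Rpe (0.45) led with it in sgSik3 and Rpia (0.45) in sgMef2c.

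Among 11 tested genes of the HIF machinery, 4 were higher and 2 lower with sgSik3, and 4 higher and 1 lower with sgMef2c. The coactivator Ep300 (0.24, SE 0.03, limma adjusted p = 0.00027) rose and Cul2 (-0.25, SE 0.05, adjusted p = 0.0016), a scaffold of the ligase that destroys HIF alpha, fell with sgSik3. Cited2, which competes with HIF for its coactivator, rose with sgMef2c (0.65, SE 0.07, adjusted p = 0.0013). Of 31 further HIF targets, 13 were higher and 8 lower with sgSik3, and 12 higher and 6 lower with sgMef2c. Mif fell (-0.75) and the glycogen synthase Gys1 rose (0.66) with sgSik3, and Zfp395 (1.28) and the glycogen branching enzyme Gbe1 (0.75) rose with sgMef2c. With sgSik3 the shares called were 66.7% for glycolysis and pyruvate, 75.0% for pentose phosphate, 54.5% for the HIF machinery and 67.7% for the further targets, beside 47.8% of all genes. With sgMef2c they were 45.8%, 62.5%, 45.5% and 58.1% in the same order, beside 31.4% of all genes.

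The knockouts were also set against each other, in an edgeR quasi-likelihood test on the reads of all 6 RN2c libraries, with values as CPM, which are reads scaled by library size and TMM. Of the 29 tested genes, 7 differed, 1 higher and 6 lower with sgMef2c, where 9.44% of all genes passed, 3.7% higher and 5.74% lower. They were 2 enzymes, 1 kinase, 3 HIF targets and Hif1a.

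Egln3 had 142 and 129 CPM in sgMef2c libraries, 180.1 and 177 in sgSik3 libraries and 201 and 202 in sgRosa26 libraries. The groups formed 3 separate steps, and the log2 difference of sgMef2c over sgSik3 was -0.40 (SE 0.05, edgeR adjusted p = 0.0017). Hk3 had 1012 and 1018 in sgMef2c libraries, 1212 and 1227 in sgSik3 libraries and 1107 and 1145 in sgRosa26 libraries. The controls lay between the knockouts, and the difference was -0.26 (SE 0.04, edgeR adjusted p = 0.003). Hif1a had 281 and 292 in sgMef2c libraries, 343 and 343 in sgSik3 libraries and 278 and 252 in sgRosa26 libraries. It was highest with sgSik3, with a difference of -0.26 (SE 0.05, edgeR adjusted p = 0.012). Pgam1 had 243 and 228 in sgMef2c libraries, 266 and 266 in sgSik3 libraries and 287 and 282 in sgRosa26 libraries, a difference of -0.18 (SE 0.04, edgeR adjusted p = 0.026).

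Pfkfb4 had 39.3 and 46.4 CPM in sgMef2c libraries, 32.9 and 34.8 in sgSik3 libraries and 18.3 and 20.9 in sgRosa26 libraries. It was the gene of the 7 that was higher with sgMef2c, by 0.34 (SE 0.09, edgeR adjusted p = 0.045). P4ha1 had 55.1 and 49.2 in sgMef2c libraries, 59.9 and 64.2 in sgSik3 libraries and 76.8 and 73.3 in sgRosa26 libraries (-0.24, SE 0.06, edgeR adjusted p = 0.042). Ndrg1 had 21.8 and 20.2 in sgMef2c libraries, 25.7 and 26.1 in sgSik3 libraries and 34.6 and 39 in sgRosa26 libraries (-0.30, SE 0.08, edgeR adjusted p = 0.046). Both were lowest with sgMef2c. Without guide e1 or without guide e3, none of the 7 passed (edgeR adjusted p from 0.054 to 0.29), and 50 genes of all tested did in either case, where 1034 passed with both. With DESeq2, Pfkfb4 (0.06), Ndrg1 (0.13) and P4ha1 (0.073) missed the threshold. Without guide 1, Ndrg1 missed it (0.072) and 633 genes passed in all, and without guide 2 Pgam1, Pfkfb4, Ndrg1 and P4ha1 missed it (0.076 to 0.16). Gpi1 (0.02, SE 0.05), Bnip3l (0.02, SE 0.05), Ldha (0.04, SE 0.03) and Pfkfb3 (-0.11, SE 0.06) did not pass between the knockouts.

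**Figure D4:**
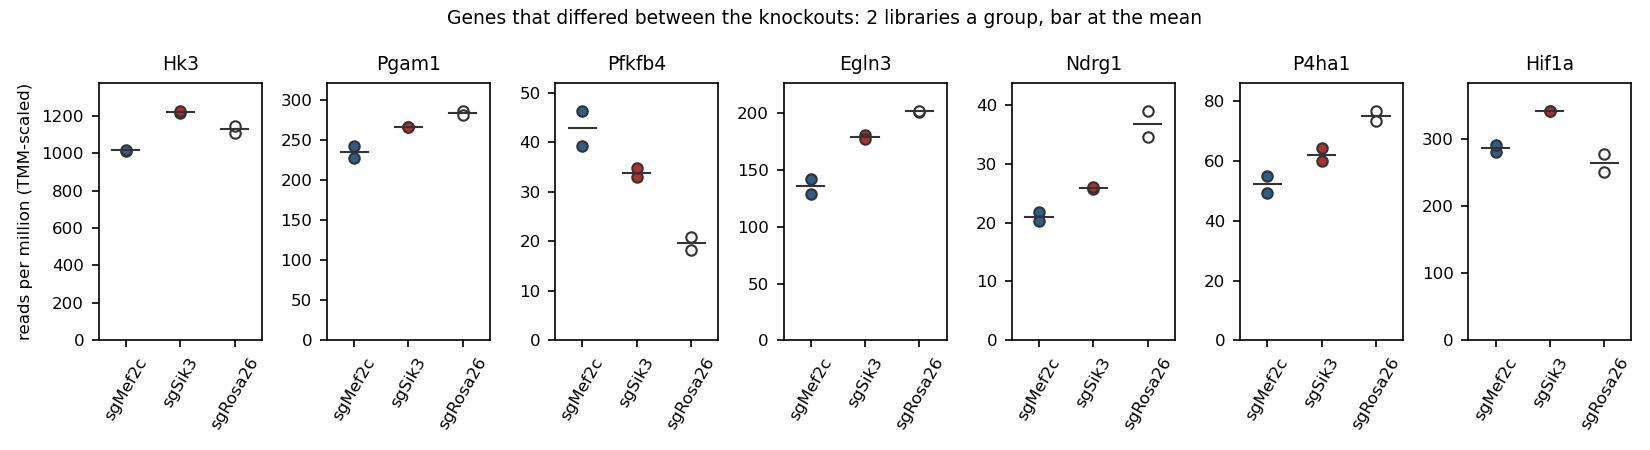
CPM, scaled by TMM, in the 6 RN2c libraries for the 7 genes that differed between the knockouts, with 1 point a library, a bar at the mean and axes from 0. Egln3, Ndrg1, P4ha1 and Pgam1 are lowest in sgMef2c, between in sgSik3 and highest in sgRosa26, Pfkfb4 has the opposite order, and Hk3 and Hif1a are highest with sgSik3.

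After 2 hours of YKL-05-099, none of the genes passed in either line in the test without pairing of libraries. With same-numbered libraries taken as blocks, some did, among them Hk2 and P4ha1 in RN2 and HK2 and HIF1A in MOLM-13. The labels give no shared origin for such libraries, so the values below are without pairing. In RN2 at 350 nM, 0 of 29 passed (limma), where 0.317% of all genes did, 34 of 10732 (0.0373% higher and 0.28% lower). Without DMSO replicate 1, 130 genes passed, and without DMSO replicate 2, 321. At an unadjusted p under 0.05 there were 2 enzymes and 2 HIF targets, and 786 genes in all. edgeR and DESeq2 on the recovered reads also called 0 enzymes and 0 HIF targets.

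Hk2, the hexokinase most responsive to hypoxia, had 1896 and 1763 normalised reads in RN2 cells with YKL-05-099, against 2163 and 2078 with DMSO. Both treated libraries lay below the controls, at a log2 fold change of -0.21 (SE 0.05, limma adjusted p = 0.22), and without DMSO replicate 2 it passed (-0.24, limma adjusted p = 0.016). P4ha1 had 916.5 and 884.3 with YKL-05-099, against 1043 and 1025 with DMSO (-0.20, SE 0.06, limma adjusted p = 0.35). Pfkfb3 had 1804 and 1732 with YKL-05-099, against 1708 and 1644 with DMSO (0.08, SE 0.05, adjusted p = 0.83). Hif1a had 3740 and 3778 with YKL-05-099, against 3734 and 3495 with DMSO (0.06, SE 0.04, adjusted p = 0.85). For these last 3 the groups did not overlap either, as was so for 36.8% of all genes tested. The intervals were narrow for the abundant enzymes Ldha, from -0.04 to 0.08, and Gpi1, from -0.03 to 0.09. For Gapdh, which had fewer reads (1387 and 1366 with YKL-05-099, against 1431 and 1487 with DMSO), the interval ran from -0.20 to 0.03. Median log2 fold changes were 0.01 for enzymes and -0.08 for HIF targets.

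In MOLM-13 at 250 nM, 0 of 31 passed, where 0% of all 11361 genes did by limma, 0 by edgeR and 7 by DESeq2. None of the 31 had an unadjusted p under 0.05, and 144 genes in all had. Without any 1 of the 4 libraries, limma called 14 to 20 genes and again none of the enzymes or HIF targets. Nor did any gene of the 4 wider lists of glycolysis and HIF genes pass in either line. HK2 had 1941 and 2010 normalised reads with YKL-05-099, against 2127 and 2280.5 with DMSO, a log2 fold change of -0.16 (SE 0.09, limma adjusted p = 1). HIF1A had 1393 and 1272 with YKL-05-099, against 1176 and 1162 with DMSO (0.19, SE 0.10, adjusted p = 1). BNIP3 had 485.5 and 493.9 with YKL-05-099, against 410.9 and 458.5 with DMSO (0.17, SE 0.12, adjusted p = 1). In these 3 the groups did not overlap, which was so for 21.2% of all genes. PFKFB4 had 105.4 and 121.3 with YKL-05-099, against 82.8 and 109.5 with DMSO, and the groups overlapped (0.25, SE 0.21, adjusted p = 1). The enzymes' median was -0.01 and that of the HIF targets 0.10.

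LDHB, HK3, EGLN3 and GAPDH, like ENO1 above, had values of very different size in the lines. GAPDH had 101796 and 104563 normalised reads in MOLM-13 with YKL-05-099, against 101317 and 106576 with DMSO. Mouse Gapdh had 1387 and 1366 in RN2 with YKL-05-099, against 1431 and 1487 with DMSO. Most of the Gapdh sequence is shared with other genes, and its mouse values are uncertain, as said above. LDHB had 24489 and 23101 normalised reads in MOLM-13 with YKL-05-099, against 22383 and 22763 with DMSO, while mouse Ldhb had 1 and 0 in RN2 with YKL-05-099, against 3.1 and 5 with DMSO. HK3 had 39.4 and 62.1 in MOLM-13 with YKL-05-099, against 54.5 and 83.8 with DMSO, and mouse Hk3 had 12968 and 12768 in RN2 with YKL-05-099, against 12996 and 12955 with DMSO. EGLN3 was listed at 0 in all 4 MOLM-13 libraries, whereas Egln3 had 2009.9 and 2091 in RN2 with YKL-05-099, against 1973 and 1882 with DMSO. The tables were normalised apart and come from different species, so these levels are set side by side and not tested.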

How the data were processed

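PolyA-selected RNA of 14 libraries was sequenced, per the labels' protocols. The deposited files are 4 tables of values normalized by the authors with DESeq2, a signal on a linear scale, normalized apart in each table. HISAT2, featureCounts, DESeq2 and the builds hg19 and mm10 are named in the submitters' processing notes. The sources used here give neither their versions nor the read length, nor how reads with several matches were counted. Dividing each library by its smallest nonzero value gave whole reads for 100% of values (within 0.01 of a read).

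The 34 genes and all lists were chosen with earlier results of these data known. In each table, genes averaging at least 10 were tested with limma 3.58.1 (R 4.3.3, trend, two-sided) on log2(value + 1), adjusted by Benjamini-Hochberg over all genes tested, with a threshold of 0.05. Fold changes on this scale understate changes of low genes. The knockouts were compared with edgeR 4.0.16 on the recovered reads. As alternatives in the order sgSik3, sgMef2c, RN2 and MOLM-13, edgeR called 5231, 3423, 30 and 0 genes and DESeq2 1.42.0 called 3538, 2253, 35 and 7. The scripts were tested on simulated data.

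By rule, values per library are given for genes called the same way in both knockouts and, in each comparison and role, for the 3 called genes with the largest change or, with none called, the gene of lowest p. Other genes given with values per library were chosen after their values were seen or were too low to test. Further alternatives were the pseudocount, the filter, TMM scaling, the replicate number as a block and leaving out each library. Sequence sharing used GENCODE M21 (GRCm38), and promoters came from RefSeq (GRCm38.p6).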

Additional observations from a re-analysis of the deposited data

Results flagged for a closer look

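P4ha1 passed in neither line given YKL-05-099 in the test without pairing, but its libraries lay on opposite sides of their controls in the 2 lines. Over all genes tested, the groups did not overlap for 36.8% in RN2 and 21.2% in MOLM-13. With the replicate number as a block, P4ha1 passed in RN2. Its log2 fold change was -0.20 in RN2, where both treated libraries (916.5 and 884.3 normalised reads) were below both DMSO libraries (1043 and 1025). It was 0.09 in MOLM-13 (SE 0.11, 95% interval from -0.16 to 0.35), where P4HA1 in both treated libraries (841.2 and 821.6) was above both DMSO libraries (744.3 and 818.6). The limma adjusted p was 0.35 in RN2 and 1 in MOLM-13, the doses differ, and the difference between the lines was not tested.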

How the results depend on the processing

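Among the values of single genes recomputed under each alternative, 402 kept their direction and their side of the threshold, 55 fell short of it and 6 newly passed, and none changed direction after being called. Leaving out guide e1 or guide e3 accounted for 14 losses each. These counts cover only genes that were called, or named by the rule above, in each comparison. Other genes that newly passed under an alternative are not in them. With sgMef2c, for example, 7 enzymes were called with a filter on a mean of at least 50, where 5 were in the main test. In fits that leave a group with 1 library, that library is assumed to vary like the others.

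With DESeq2, the number of genes called was 2253 with sgMef2c (3442 with limma), 7 in MOLM-13 (0) and 606 between the knockouts (1034), where 1 HIF target was called (3). Without a filter on low values, 3 genes were called in RN2 (34). Leaving out each library gave, with sgSik3, 4 to 8 enzymes and 4 to 6 HIF targets, and with sgMef2c 1815 to 3138 genes and 3 to 5 enzymes. It gave 28 to 321 genes and 0 to 1 enzymes in RN2, and 14 to 20 genes in MOLM-13. Between the knockouts it gave 50 to 1152 genes, 0 to 2 enzymes and 0 to 3 HIF targets. The cause of these shifts was not tested.

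The labels give the same numbers to libraries of compared groups but no shared origin, so the numbers were not taken as pairs. Over genes, same-numbered libraries correlated in their deviations by 0.051 with sgMef2c, 0.216 in RN2 and 0.525 in MOLM-13, over 2 pairs each. Where they correlate, the test without pairing counts a difference between replicate numbers as spread, which can hide changes, most of all in MOLM-13. Its part in the lack of calls with YKL-05-099 was not tested. With the replicate number as a block, 9 enzymes were called with sgMef2c, 499 genes, 2 enzymes and 1 HIF target in RN2, and 290 genes and 1 enzyme in MOLM-13. Hk2 (adjusted p = 4e-05) and P4ha1 (0.011) then passed in RN2, and HK2 (0.048) and HIF1A (0.033) in MOLM-13. In sgMef2c the number names a guide, so this fit joins a guide and a control replicate by number alone. No such fit was made for sgSik3, whose guides e1 and e3 do not share both numbers with the controls, nor for the comparison of the knockouts.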
